A study of Mus musculus with 8 samples.

Results

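The genes described here are 39 enzymes and transporters of glycolysis, lactate handling, the pentose phosphate pathway and glycogen turnover, followed across 3T3-L1 cells in which transcription by RNA polymerase III was perturbed. They were chosen by name, from knowledge of the pathways and with earlier results of these data known, and all 39 were found among the 31252 genes of the deposited tables. The 3T3-L1 line consists of mouse fibroblasts that a hormone cocktail drives to become adipocytes. Messenger RNA was sequenced from control cells with an empty shRNA vector, from cells with an shRNA against Maf1 (shMaf1), from cells with an shRNA against Brf1 (shBrf1), and from cells given ML-60218, a small molecule that inhibits this polymerase. The Maf1 protein represses the polymerase, and Brf1 is part of its initiation factor TFIIIB. Each of the 4 conditions was collected from confluent cells at day 0, before induction, and at day 2, when the cells had spent 2 days with insulin (10 µg/mL), dexamethasone (2 µM), IBMX (0.5 mM) and ascorbic acid (25 µg/mL). The labels do not give the dose, vehicle or start of ML-60218, nor whether those cells carried a vector, and the number of shRNAs or clones behind each knockdown is not given. Every group was 1 library, so no difference below has a replicate check, and the comparisons on a day share the control library of that day.

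Glycolysis takes up glucose through facilitative transporters, traps it as glucose 6-phosphate, splits it into triose phosphates and ends in pyruvate. Pyruvate is either reduced to lactate, which leaves the cell through monocarboxylate transporters, or enters mitochondria through the pyruvate dehydrogenase complex, which the PDK kinases switch off. The pentose phosphate pathway branches off at glucose 6-phosphate, makes NADPH in its oxidative branch, and interconverts sugar phosphates in its non-oxidative branch. Differentiating adipocytes draw on both for the acetyl units, glycerol backbone and NADPH of fat synthesis. Many genes of the glycolytic chain are also known targets of the hypoxia-inducible factor HIF-1.

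The libraries held 29035505 to 31759559 counts. Levels are given as CPM, the count of a gene scaled to a fixed library size, after TMM scaling, and genes count as higher or lower where the log2 ratio (with 0.5 CPM added to both values) had a size of 1 or more and either library reached 1 CPM. Where 4 levels of a day are given together, they stand in the order control, shMaf1, shBrf1 and ML-60218. Folds in the text are ratios of CPM with nothing added, followed by a 95% interval that covers counting error only. Of the targeted genes, Maf1 stood at 13.1 CPM (day 0) and 12.0 CPM (day 2) in shMaf1 and at 54.9 to 61.8 CPM in the 6 other libraries. Brf1 stood at 19.0 CPM and 13.5 CPM in shBrf1, under the 25.3 to 33.2 CPM of the 6 other libraries, and its 1.73-fold difference from control at day 0 was short of the size rule. The adipocyte markers Fabp4, Adipoq, Cidec, Plin1, Pparg, Cebpa and Lipe summed to 39.2 to 70.2 CPM at day 0 and, at day 2, to 438 CPM in control, 154 CPM in shMaf1, 1919 CPM in shBrf1 and 1252 CPM in ML-60218. Summed macrophage, endothelial, epithelial and skeletal muscle markers stayed at or below 25.2 CPM for each list in each library, with Epcam, Myod1 and Ckm at 0 throughout. The shBrf1 library of day 2 had 7.80% of reads on ribosomal RNA, against 0.46% to 0.93% in the others. The authors' score for 3′ bias of coverage was 0.36 in shBrf1 at day 2, 0.22 in ML-60218 at day 2 and 0.06 to 0.15 elsewhere. Spike-in reads of the ERCC set numbered 236550 to 259854 at day 0, and at day 2 300256 in shMaf1, 337922 in control, 455966 in ML-60218 and 474958 in shBrf1. The amount added per sample is not given in the labels. Scaling by these reads moved the median log2 ratio of all genes by -0.66 for shBrf1, by -0.59 for ML-60218 and by 0.16 for shMaf1, each against control at day 2. It moved it by -0.66 for day 2 against day 0 in control, by -0.33 in shMaf1, by -1.18 in shBrf1 and by -1.26 in ML-60218. All values below are therefore relative to the bulk of the mRNA, and less mRNA per cell cannot be told apart from fewer cells.

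Of the 39 genes, 36 reached 1 CPM in at least 1 library and 35 did so in all 8. The exception among the 36 was Slc16a3, and the 3 others, Slc2a3, Aldoc and Pygl, stayed under 1 CPM in every library. A total of 25 passed the size rule in at least 1 of 10 comparisons (each perturbation against control on each day, and day 2 against day 0 in each condition), and 14 passed in none. The genes together took 0.514% of all counts in control at day 0 (exact binomial interval 0.512% to 0.517%) and 0.851% at day 2 (0.848% to 0.855%). In shMaf1 the share was 0.486% at day 0 and 0.692% at day 2, and in shBrf1 it was 0.571% and 0.899%. In ML-60218 it was 0.534% at day 0 and 1.82% at day 2 (1.82% to 1.83%), the highest share of the 8 libraries. Of the 36 measured genes, 22 had their highest level in the ML-60218 library of day 2.

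**Figure D1:**
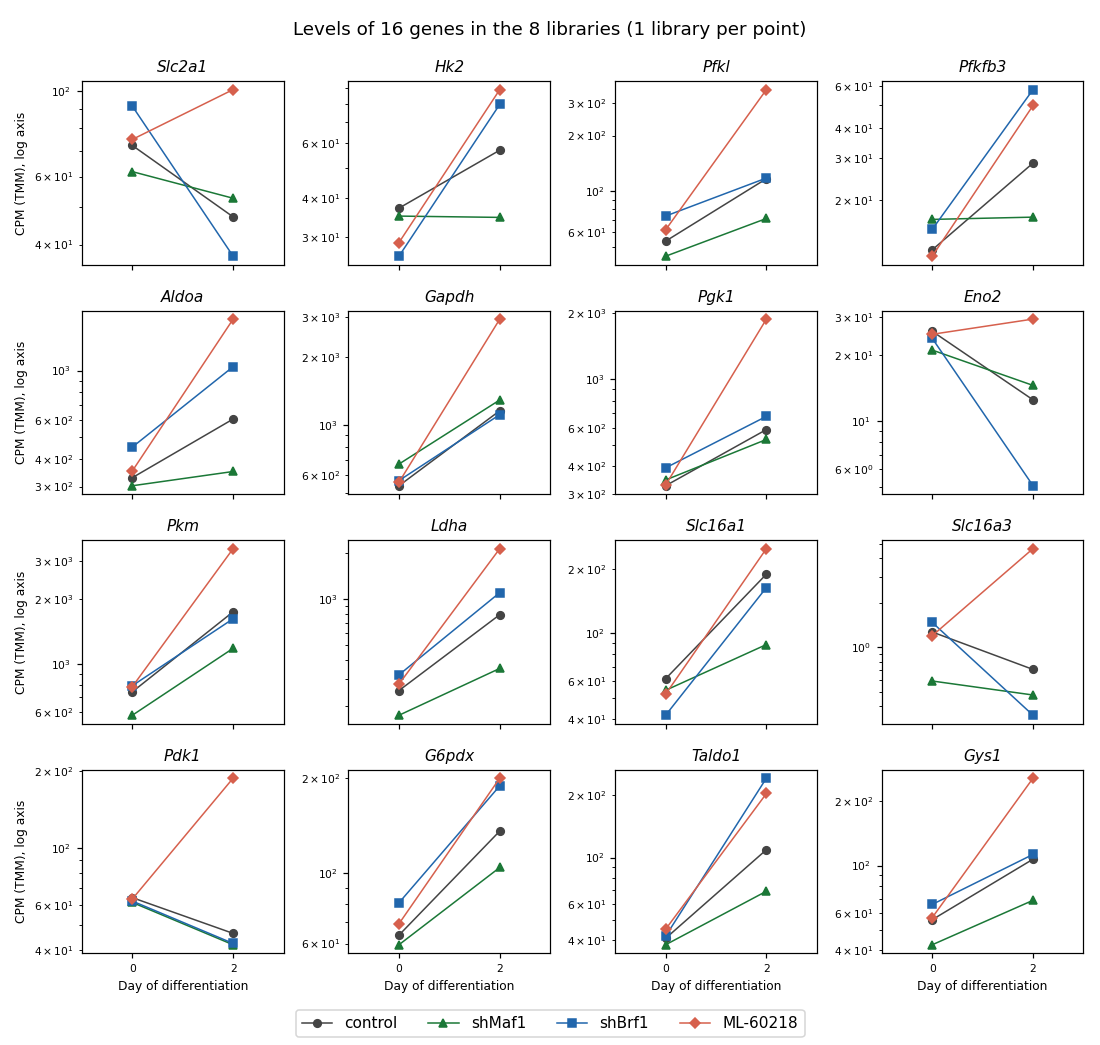
CPM (log axis) of 16 genes at day 0 and day 2, with 1 point per library and a line joining the 2 libraries of a condition. Pgk1, Gapdh and Pdk1 sit close together at day 0 and, like Ldha and Pfkl, stand highest in ML-60218 at day 2, while Taldo1 and Pfkfb3 are highest in shBrf1 at day 2.

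At day 0 the conditions differed little in these genes. None of the 36 measured genes passed the size rule in any of the 3 comparisons with control, where 2.60% of all tested genes were higher and 1.02% lower in shMaf1, 0.489% higher and 0.497% lower in shBrf1, and 0.0410% higher and 0.0738% lower in ML-60218. The widest log2 ratio among the 36 in ML-60218 was -0.36, for Hk2, a hexokinase that insulin-responsive tissues use. In shBrf1 29 of the 36 were above control at day 0, by a median log2 ratio of 0.18 against 0.02 for all genes tested. In shMaf1 the extremes were the lactate dehydrogenase subunit gene Ldhb at 0.78, with 84.6 CPM against 48.9 CPM in control, and Slc16a3 at -0.70, with 0.592 CPM against 1.27 CPM.

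In control cells the hormone cocktail was accompanied by a higher share of glycolytic and pentose phosphate mRNA. Between day 0 and day 2, 10 genes were higher (9.0% of all tested genes) and 2 were lower (9.75% of all tested genes). The higher genes were Ldha, which makes lactate from pyruvate, Slc16a1, which encodes the transporter MCT1, the phosphofructokinase subunits Pfkl and Pfkp, Pfkfb3, Gapdh, Pgam1, Pkm, G6pdx and Taldo1. Ldha had 252, 173, 319 and 278 CPM at day 0 and 792, 352, 1105 and 2148 CPM at day 2, so that it was higher at day 2 in every condition, by 3.15-fold (3.07 to 3.23) in control. Slc16a1 had 61.3, 54.2, 41.5 and 52.0 CPM at day 0 and 189, 88.7, 164 and 249 CPM at day 2, a 3.08-fold difference (2.93 to 3.24) in control. The lower genes were the minor enolases Eno2, from 25.8 CPM to 12.5 CPM, and Eno3. Eno3, the muscle enolase gene, had 24.9, 30.0, 30.0 and 20.5 CPM at day 0 and 11.0, 14.8, 10.8 and 8.89 CPM at day 2, less at day 2 than at day 0 in each condition. Slc2a1, the glucose transporter GLUT1, was 72.3 CPM at day 0 and 47.2 CPM at day 2, short of the size rule. With spike-in scaling the 10 higher genes kept log2 ratios above 0, from 0.42 for G6pdx to 0.98 for Ldha, but none was past the rule (3.76% of all tested genes were higher). In that scaling 8 genes of the list were lower, as were 28.6% of all tested genes.

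The same interval in the other conditions differed in extent. In shMaf1 2 genes were higher (4.95% of all tested genes), Pkm by 2.04-fold (2.01 to 2.08) and Ldha by 2.03-fold (1.96 to 2.10), and none was lower (5.57%). In shBrf1 13 were higher (14.7%) and 4 lower (17.3%), the latter being Slc2a1, Eno2, Eno3 and Slc16a3. In ML-60218 21 were higher (12.3%) and 1, Eno3, was lower (14.5%). The largest ratio in that condition was for Ldha, which went from 278 CPM to 2148 CPM, a 7.74-fold difference (7.57 to 7.91). In shBrf1 it was for Taldo1, which encodes transaldolase of the non-oxidative pentose phosphate branch and went from 41.8 CPM to 241 CPM, a 5.77-fold difference (5.44 to 6.12).

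**Figure D2:**
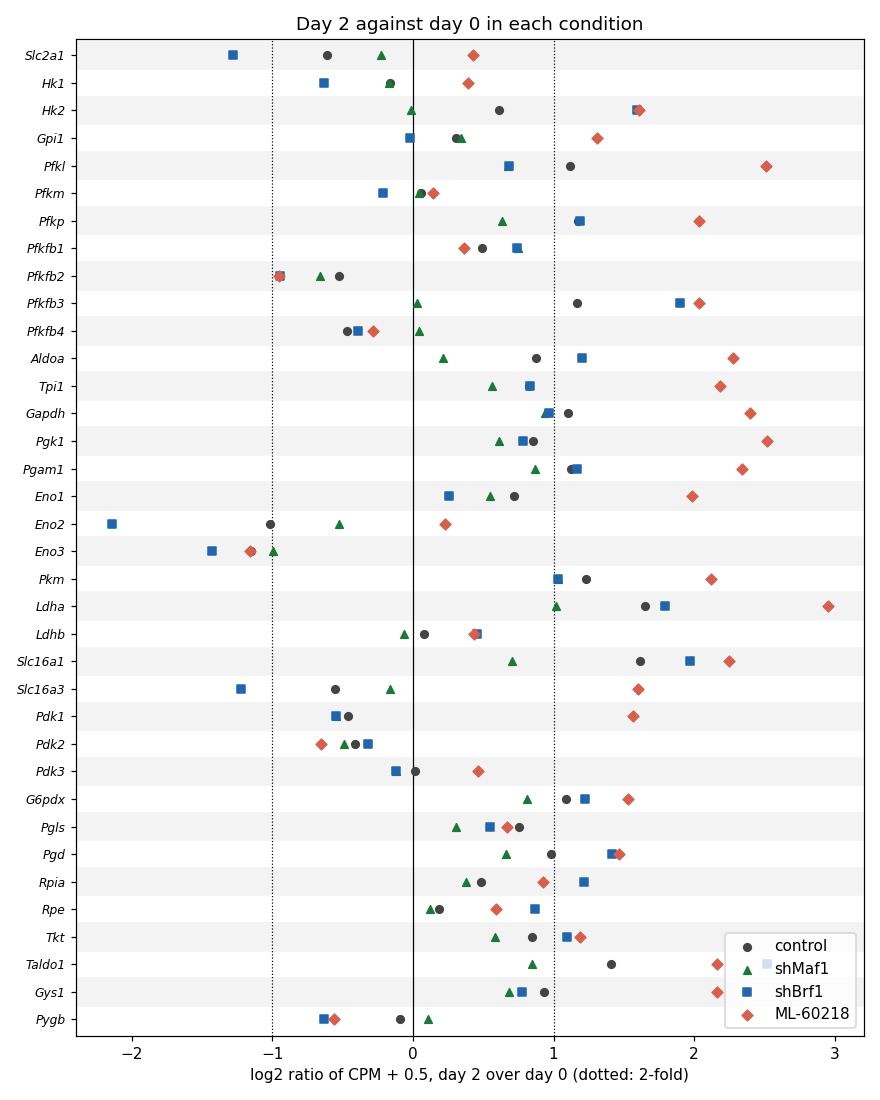
Log2 ratio of day 2 over day 0 for the 36 measured genes, ordered along the pathways, with 1 point per condition and dotted lines at 2-fold. The ML-60218 points lie farthest right for most genes between Gpi1 and Ldha, reaching 2.95 for Ldha, and the shMaf1 points do not pass 1.03.

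At day 2 the ML-60218 library stood above control along nearly the whole glycolytic chain. Of the 36 measured genes 14 were higher (1.77% of all tested genes) and none was lower (3.11%), and 31 had a ratio above 0. The median log2 ratio was 0.71, against 0.01 over all genes tested. For the chain from hexokinase to lactate dehydrogenase, a grouping made after the values were seen, 10 of 17 measured genes were higher and the median was 1.20. The 3′ bias score was 0.22 in ML-60218 and 0.15 in control at day 2, and with a trend of the ratio on transcript length removed the median of the chain was 1.15.

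At the entry to the pathway, Slc2a1 had 72.3, 61.8, 91.4 and 74.9 CPM at day 0 and 47.2, 52.7, 37.3 and 101 CPM at day 2. ML-60218 was the highest of the 4 at day 2 and, with TMM scaling, the only one above its own day 0 level. With spike-in scaling ML-60218 too was below its day 0 level. The fold over control was 2.14 (2.00 to 2.28). Hexokinases trap glucose by phosphorylation, and neither gene passed the rule: Hk1 had 122 CPM against 83.2 CPM in control at day 2. Hk2 had 37.2, 35.1, 26.1 and 28.9 CPM at day 0 and 57.0, 34.8, 79.9 and 89.0 CPM at day 2, with shBrf1 and ML-60218 lowest at day 0 and highest at day 2. Gpi1, the isomerase that follows, had 143, 164, 148 and 162 CPM at day 0 and 177, 208, 145 and 402 CPM at day 2. It passed the rule in ML-60218, 2.27-fold above control (2.20 to 2.35).

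Phosphofructokinase commits sugar to glycolysis, and its liver-type subunit gene Pfkl had 53.7, 44.5, 73.4 and 61.8 CPM at day 0 and 117, 71.3, 118 and 355 CPM at day 2. ML-60218 at day 2 stood above the other 7 libraries, 3.03-fold over control (2.92 to 3.16). The platelet-type subunit gene Pfkp had 32.1, 35.8, 45.8 and 35.2 CPM at day 0 and 73.3, 55.7, 105 and 145 CPM at day 2. It was 1.98-fold above control in ML-60218 (1.88 to 2.09), just short of the rule, and the muscle-type subunit gene Pfkm had 146 CPM against 128 CPM at day 2.

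The enzymes that split and oxidise the sugar stood higher together. Aldoa, the aldolase, had 329, 302, 452 and 352 CPM at day 0 and 605, 351, 1042 and 1707 CPM at day 2. Tpi1, which interconverts the triose phosphates, had 287, 279, 319 and 308 CPM at day 0 and 509, 413, 567 and 1398 CPM at day 2. For both genes ML-60218 was highest and shMaf1 lowest of the day 2 libraries, and the folds of ML-60218 over control were 2.82 (2.78 to 2.87) and 2.75 (2.70 to 2.80).

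Gapdh, which makes the first NADH of the payoff phase, had 537, 670.1, 566 and 557 CPM at day 0 and 1154, 1288, 1109 and 2934 CPM at day 2. Pgk1, the next enzyme and the first to yield ATP, had 326, 347, 394 and 329 CPM at day 0 and 589.6, 531, 678 and 1886 CPM at day 2. For both genes the other 3 day 2 libraries lay close together beneath ML-60218, and the folds over control were 2.54 (2.51 to 2.58) and 3.20 (3.14 to 3.25). Pgam1, the phosphoglycerate mutase, had 239.8, 224, 282 and 254 CPM at day 0 and 523, 409.9, 634 and 1287 CPM at day 2. The major enolase gene Eno1 had 502, 507, 652 and 507 CPM at day 0 and 827, 741, 781 and 2007 CPM at day 2. ML-60218 was highest at day 2 for both, 2.46-fold (2.41 to 2.51) and 2.43-fold (2.39 to 2.47) above control.

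Eno2, known as neuronal enolase, stood on opposite sides of control in 2 perturbations at day 2. It had 25.8, 21.2, 24.0 and 25.0 CPM at day 0 and 12.5, 14.6, 5.05 and 29.4 CPM at day 2. The libraries lay close together at day 0, and at day 2 ML-60218 was 2.35-fold above control (2.07 to 2.67) and shBrf1 2.48-fold beneath it (2.02 to 3.05). Pkm, the pyruvate kinase of most dividing cells, had 743, 579, 793 and 785 CPM at day 0 and 1745, 1183, 1621 and 3423 CPM at day 2. ML-60218 was highest, but its 1.96-fold difference from control (1.94 to 1.98) missed the rule. Eno3 was the one measured gene of the chain below control, with 8.89 CPM against 11.0 CPM.

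A lactate exporter and a kinase that blocks pyruvate oxidation had the widest ratios. Ldha, whose levels are given above, was 2.71-fold higher in ML-60218 than in control (2.67 to 2.75). Slc16a3, the lactate exporter MCT4, had 1.27, 0.592, 1.47 and 1.20 CPM at day 0 and 0.708, 0.476, 0.347 and 4.65 CPM at day 2. ML-60218 at day 2 was the one library above 1.47 CPM. Its fold over control was 6.57 with a wide interval (4.11 to 11.0), since the gene was rare. Slc16a1 did not pass the rule, with 249 CPM against 189 CPM in control.

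Pdk1, a kinase that inactivates pyruvate dehydrogenase, had 63.9, 61.2, 62.0 and 63.2 CPM at day 0 and 46.3, 41.8, 42.3 and 188 CPM at day 2. ML-60218 at day 2 was the one library apart. The fold over control was 4.05 (3.82 to 4.30). Its paralogs did not pass the rule: Pdk3 had 49.8 CPM against 34.8 CPM and Pdk2 had 8.58 CPM against 11.1 CPM. Gys1, the glycogen synthase of muscle and fat, had 55.7, 42.5, 65.7 and 57.0 CPM at day 0 and 107, 68.7, 113 and 257 CPM at day 2. ML-60218 was highest at day 2, 2.40-fold above control (2.30 to 2.50).

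**Figure D3:**
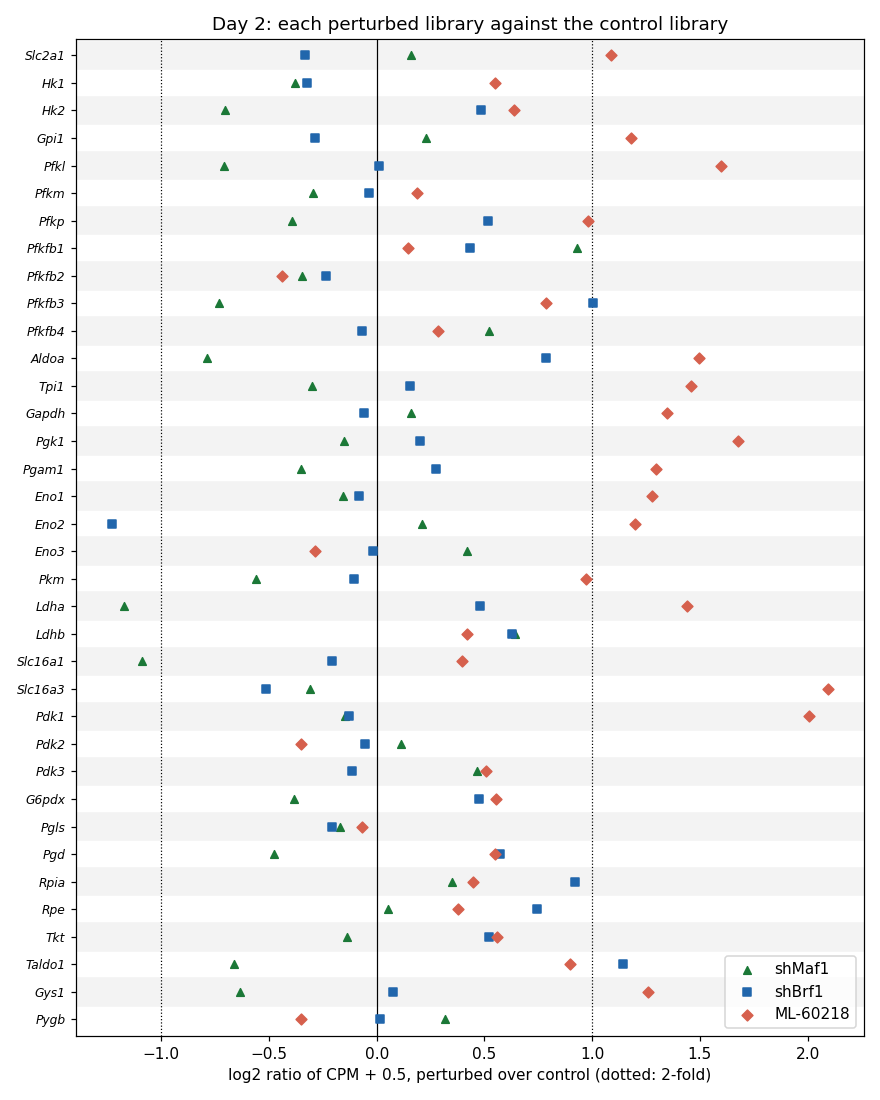
Log2 ratio of each perturbed library over control at day 2 for the 36 measured genes, ordered along the pathways, with dotted lines at 2-fold. ML-60218 points pass 1 for 14 genes, up to 2.09 for Slc16a3. The shBrf1 points of the glycolytic chain lie on both sides of 0, from -1.23 for Eno2 to 0.78 for Aldoa.

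The counts of ML-60218 depended on the scaling. With spike-in scaling the 14 genes stayed above control, at log2 ratios of 0.48 for Slc2a1 to 1.51 for Slc16a3, but 3 of them remained past the rule (Slc16a3, Pdk1 and Pgk1; 0.540% of all tested genes were higher), and 1 other gene was lower (12.6% of all tested genes). The median of the chain was then 0.60, while the median of all genes had moved by -0.59. The pentose phosphate genes had a median of -0.06 under that scaling, against 0.55 with TMM.

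The pentose phosphate genes were less apart in ML-60218 and none of the 7 passed the rule at day 2. G6pdx, which makes the first NADPH of the oxidative branch, had 63.8, 59.5, 80.7 and 69.3 CPM at day 0 and 136, 104, 189.6 and 200.5 CPM at day 2. Tkt, the transketolase, had 125, 137, 152 and 146 CPM at day 0 and 226, 206, 325 and 334 CPM at day 2. For both genes ML-60218 and shBrf1 lay close together above control at day 2, with shMaf1 lowest. Pgd, which makes the other NADPH, had 78.6, 70.5, 86.9 and 82.4 CPM at day 0 and 156, 112, 232 and 229 CPM at day 2, in the same pattern. The lactonase gene Pgls had 60.4 CPM in ML-60218 and 54.8 CPM in shBrf1 against 63.4 CPM in control at day 2.

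In shBrf1 at day 2 the pentose phosphate genes stood above control relative to the bulk of the mRNA, and the glycolytic chain lay around it, with 9 of its 17 measured genes above control. Of the 36 genes 35 could be counted here, 2 were higher (3.11% of all tested genes) and 1, Eno2, was lower (5.50%). The higher genes were Taldo1 and Pfkfb3. Taldo1 had 40.8, 38.0, 41.8 and 45.1 CPM at day 0 and 109, 68.8, 241 and 203 CPM at day 2, and the fold of shBrf1 over control was 2.21 (2.12 to 2.31). Pfkfb3, which makes the sugar bisphosphate that activates phosphofructokinase, had 12.5, 16.7, 15.2 and 11.7 CPM at day 0 and 28.6, 17.1, 57.9 and 49.7 CPM at day 2. Its fold of 2.02 (1.86 to 2.20) lay at the edge of the rule, and spike-in scaling brought it to a log2 ratio of 0.33 and Taldo1 to 0.46. The non-oxidative enzymes Rpia, the ribose isomerase, and Rpe, the ribulose epimerase, had log2 ratios of 0.92 and 0.75. Rpia had 17.3, 24.0, 19.9 and 17.4 CPM at day 0 and 24.4, 31.3, 46.7 and 33.5 CPM at day 2, with shBrf1 highest at day 2. All 7 pentose phosphate genes but Pgls lay above control in shBrf1, with a median log2 ratio of 0.57 against 0.01 over all genes tested, and against 0.01 for the glycolytic chain. With spike-in scaling, where the median of all genes was -0.65, 3 of the 7 lay above control and their median was -0.11, while the chain had 1 of 17 above control and a median of -0.66. The 3′ bias score of this library was 0.36. With the length trend removed, 1 of the 2 higher genes stayed past the rule and the median of the chain was -0.12. No such median was taken for the pentose phosphate genes.

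The libraries of shBrf1 and ML-60218 at day 2 were also set against each other, a comparison added after the values were seen. Both held more adipocyte marker mRNA than control. Of the 36 measured genes 13 were higher in ML-60218 (2.34% of all tested genes) and none was lower (1.88%), and no pentose phosphate gene was among them. Pdk1 was 4.44-fold higher (4.15 to 4.74), Pgk1 2.78-fold (2.74 to 2.83), Gapdh 2.65-fold (2.61 to 2.68) and Eno2 5.82-fold (4.83 to 7.06). The median of the glycolytic chain was 1.02 and that of the pentose phosphate genes -0.02. Here spike-in scaling moved the median of all genes by 0.07 only, and all 13 genes remained past the rule. The share of ribosomal RNA and the 3′ bias score were higher in shBrf1, and their part in the difference was not tested beyond the removal of the length trend, which left a median of 1.18 for the chain.

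In shMaf1 at day 2 few genes stood apart from control. Of 35 genes counted 13 lay above control with a median log2 ratio of -0.17, and with spike-in scaling 17 did with a median of -0.01. None was higher (4.57% of all tested genes) and 2 were lower (3.48%, a share close to that of the list), Ldha by 2.25-fold (2.20 to 2.31) and Slc16a1 by 2.13-fold (2.04 to 2.23). Both genes already lay under control at day 0, where Ldha had 173 CPM against 252 CPM. By contrast Ldhb, whose subunit favours the oxidation of lactate, had 81.0 CPM against 51.8 CPM in control at day 2. Aldoa had 351 CPM against 605 CPM, a log2 ratio of -0.79, Pfkl and Hk2 each had a log2 ratio of -0.71, and Pfkfb3 had -0.73, with Gapdh at 0.16 and Gpi1 at 0.23 on the other side. Pfkfb1, first known from liver, had 9.58 CPM against 4.79 CPM, just short of the rule at a log2 ratio of 0.93. The median of the glycolytic chain was -0.30, or -0.14 with spike-in scaling, which left Ldha past the rule at -1.01, took Slc16a1 to -0.93 and put Pfkfb1 past the rule.

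The response between day 0 and day 2 was also compared between conditions. Against the control response, 14 of 36 genes had a higher response in ML-60218 (1.84% of all tested genes) and none a lower one (2.57%), with Slc16a3 at 2.15, Pdk1 at 2.02 and Pgk1 at 1.67 on the log2 scale. In shBrf1 1 gene had a higher response, Taldo1 at 1.11 (2.55%), and 1 a lower one, Eno2 at -1.12 (4.91%), while Pfkfb3, called at day 2, had a response difference of 0.73. With the length trend removed, the response of Taldo1 was no longer past the rule, and that of 1 other gene was. In shMaf1 no gene had a higher response (3.46%) and 1, Pfkfb3 at -1.14, had a lower one (2.45%). Ldha and Slc16a1, the genes called at day 2 in shMaf1, had response differences of -0.63 and -0.91, short of the rule, and Pfkfb3 was not called at day 2. Pfkfb3 had 16.7 CPM at day 0 and 17.1 CPM at day 2 in shMaf1, against 12.5 CPM and 28.6 CPM in control, so its level at day 2 was close to that at day 0.

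Within enzyme families the make-up differed between days and conditions when levels were set per kilobase of transcript. Of phosphofructokinase mRNA, the muscle-type Pfkm made up 62.1% to 65.8% in the 4 day 0 libraries. At day 2 its share was 47.6% in control, 52.7% in shMaf1, 43.3% in shBrf1 and 28.0% in ML-60218, where Pfkl had the largest share at 52.6%. Among the PFKFB genes, Pfkfb2 led at day 0 with 43.7% to 55.0%, and at day 2 Pfkfb3 made up 49.6% in shBrf1 and 47.2% in ML-60218, 32.5% in control and 19.1% in shMaf1. In shMaf1 at day 2 the share of Pfkfb1, 29.7%, was the largest of the 4.

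Ldha made up 78.7% of lactate dehydrogenase mRNA per kilobase in control at day 0 and 59.6% in shMaf1, and at day 2 95.7% in ML-60218, 91.7% in control, 90.8% in shBrf1 and 75.7% in shMaf1. shMaf1 thus had the lowest share of Ldha on both days. The pyruvate dehydrogenase kinases were taken with Pdk4, which is not among the 39 genes. In ML-60218 at day 2 Pdk1 had the largest share at 45.2%, against 11.9% to 20.8% in the other day 2 libraries. In shMaf1 at day 2 Pdk4 had the largest share at 46.5%, and in ML-60218 at day 0 Pdk4 (33.6%) and Pdk3 (31.9%) were close. Pdk3 had the largest share in the other 5 libraries, at 34.0% to 43.2%. Eno1 made up 90.3% to 98.4% of enolase mRNA in the 8 libraries, and Slc16a1 96.5% to 99.8% of that of the 2 lactate transporters. By the same scale the most abundant genes of control cells at day 0 were Gapdh (378 CPM per kilobase), Pkm (306), Eno1 (248) and Aldoa (212).

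**Figure D4:**
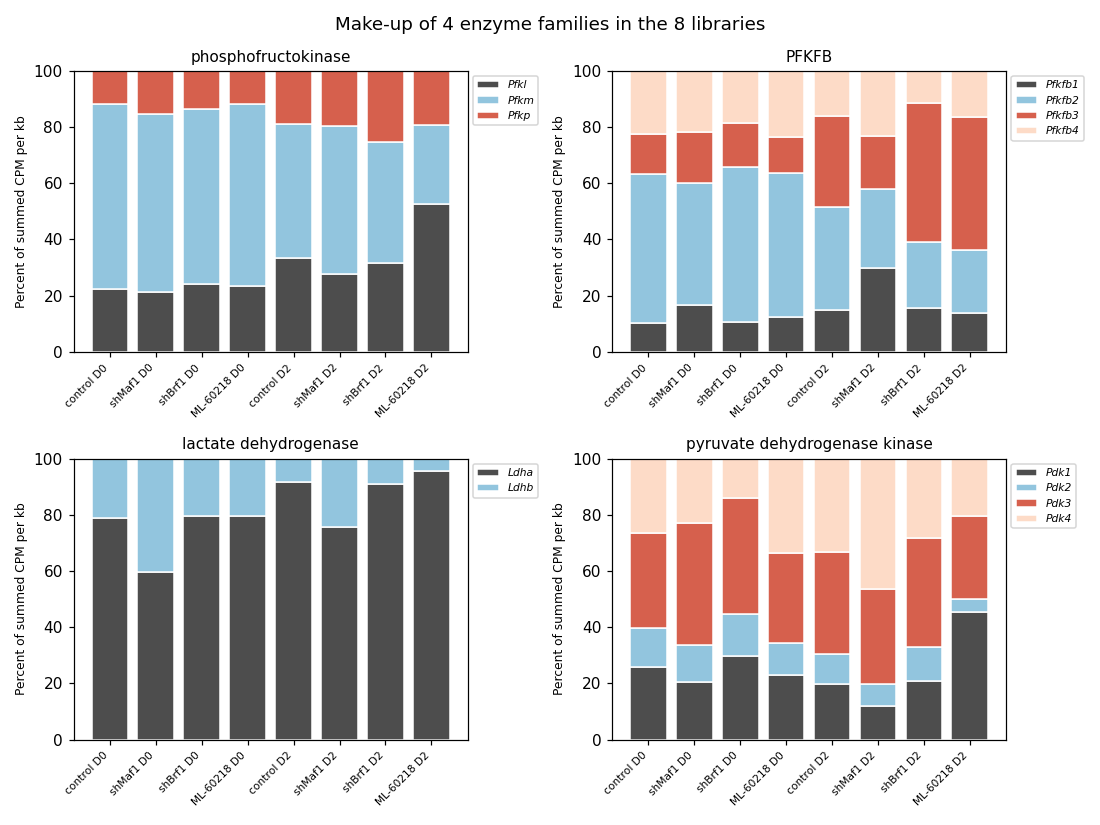
Percent of the summed CPM per kilobase of 4 enzyme families taken by each gene, as stacked bars from 0 to 100 for the 8 libraries. In ML-60218 at day 2 Pfkl (52.6%) and Pdk1 (45.2%, with Pdk4 counted) have the largest share of their family, and in shMaf1 Ldhb has its largest share on both days.

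The start regions of the members were read from RefSeq (build GRCm38.p6, which matches the mm10 coordinates of the tables). They were searched on both strands for ACGTG, 1 form of the core of the element that hypoxia-inducible factors bind. Other forms, such as GCGTG, were not searched, and a core below means ACGTG. A window held 250 bases before and 50 bases after an annotated start, and 38 of the 39 genes had 1 or more windows. ACGTG was found for 20 of the 38 genes (52.6%), against 21.8% of 27025 genes with a window, and for 24 of 58 windows (41.4%) against 19.6% of all windows. The comparison set was not limited to genes expressed in these cells and was not matched for base composition, so the part of either in the difference was not tested. At least 2 cores in a window were found for 8 genes (21.1%), against 3.09% of all genes. The E-box CACGTG, which overlaps the core, was found for 6 genes (15.8% against 8.09%), the AP-1 motif TGACTCA for 1 (2.63% against 5.95%) and TATAAA, searched on the gene's strand, for 2 (5.26% against 9.77%). Of the 14 genes higher in ML-60218 at day 2, 7 had ACGTG, and of the other 24 members with a window 13 had it. The higher genes thus did not hold these letters more often than the rest of the list. Other forms of the core were not counted, so the split does not cover them. A match is a description of the letters and not of binding. The 250 bases before the start are shown for 4 genes that were higher in ML-60218 at day 2, with the matches in capitals (ACGTG or, on the other strand, CACGT, joined where they overlap), and for Pdk1, which had the widest ratio of the abundant genes and no match. The stretches lie at chr11:120948817-120949066 for Slc16a3, chrX:106186850-106187099 for Pgk1, chr7:46845554-46845803 for Ldha, chr4:119108495-119108744 for Slc2a1 and chr2:71872974-71873223 for Pdk1, all on the plus strand.
Slc16a3: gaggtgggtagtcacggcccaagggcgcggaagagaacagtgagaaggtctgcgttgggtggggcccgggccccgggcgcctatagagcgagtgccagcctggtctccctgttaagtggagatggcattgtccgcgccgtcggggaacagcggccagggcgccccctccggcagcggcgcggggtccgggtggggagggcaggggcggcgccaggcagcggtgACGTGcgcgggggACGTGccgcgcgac
Pgk1: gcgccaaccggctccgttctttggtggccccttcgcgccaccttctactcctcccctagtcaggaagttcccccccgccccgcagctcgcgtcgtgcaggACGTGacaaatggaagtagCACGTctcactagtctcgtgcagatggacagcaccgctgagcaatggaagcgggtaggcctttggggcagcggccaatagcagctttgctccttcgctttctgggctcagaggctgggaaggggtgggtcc
Ldha: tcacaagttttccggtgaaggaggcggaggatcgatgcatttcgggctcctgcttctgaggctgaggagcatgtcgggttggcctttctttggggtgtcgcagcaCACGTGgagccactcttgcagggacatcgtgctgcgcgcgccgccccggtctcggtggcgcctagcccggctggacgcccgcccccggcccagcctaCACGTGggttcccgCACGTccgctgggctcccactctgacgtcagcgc
Slc2a1: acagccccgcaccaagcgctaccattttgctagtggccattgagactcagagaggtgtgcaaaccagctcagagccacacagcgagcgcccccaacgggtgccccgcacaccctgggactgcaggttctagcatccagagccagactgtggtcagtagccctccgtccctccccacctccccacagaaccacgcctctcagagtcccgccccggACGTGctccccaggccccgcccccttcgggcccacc
Pdk1: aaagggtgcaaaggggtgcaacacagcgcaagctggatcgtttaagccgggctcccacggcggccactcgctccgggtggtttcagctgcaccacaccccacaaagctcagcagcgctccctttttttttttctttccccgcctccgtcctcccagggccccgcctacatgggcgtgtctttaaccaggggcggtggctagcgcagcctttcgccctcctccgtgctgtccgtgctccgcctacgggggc
The cores of Slc16a3 began 27 and 14 bases before the start, those of Pgk1 150 and 131 bases before it, those of Ldha 145, 48 and 34 bases before it, and that of Slc2a1 36 bases before it. Of the 3 cores of Ldha, 2 were part of the E-box CACGTG. A second annotated start of Ldha and one of Pdk1 further downstream held no ACGTG either.

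Genes around these pathways were followed in 8 further lists with 82 genes, 81 of them in the tables. These lists were compared with TMM scaling only. Among regulators, Egln1 and Egln3, which encode prolyl hydroxylases that mark HIF subunits for degradation and are themselves known HIF targets, were higher in ML-60218 at day 2. Egln3 stood at 38.6 CPM in ML-60218, 8.03 CPM in control, 4.96 CPM in shMaf1 and 11.9 CPM in shBrf1, a 4.82-fold difference from control (4.18 to 5.57). Egln1 stood at 112 CPM in ML-60218 and at 35.2 to 37.6 CPM in the other 3 day 2 libraries. These were the 2 of 11 measured regulators past the rule, where 1.77% of all tested genes were higher and 3.11% lower. Hif1a itself had 355 CPM in ML-60218 against 371 CPM in control.

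Of 14 further glycogen genes counted in ML-60218 at day 2, 3 were higher (1.77% of all tested genes) and none lower (3.11%). Gbe1, the branching enzyme, had 34.1 CPM against 7.18 CPM in control, a 4.75-fold difference (4.09 to 5.55), Pgm2 had 178 CPM against 82.8 CPM and Ppp1r3b, a glycogen-targeting subunit of protein phosphatase, had 10.6 CPM against 4.48 CPM. In shBrf1 the 1 higher gene of the list (3.11% of all tested genes) was Ppp1r3d, with 32.2 CPM against 15.0 CPM. In shMaf1 the 1 lower gene (3.48% of all tested genes) was Ppp1r3b, with 1.73 CPM.

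Of 10 measured genes for the entry of pyruvate into mitochondria, 3 were higher in shBrf1 at day 2 (3.11% of all tested genes) and none lower (5.50%). Spike-in scaling moved the median of all genes by -0.66 in this comparison and was not applied to these genes. The higher genes were the pyruvate carrier genes Mpc1, with 97.1 CPM against 43.4 CPM in control, and Mpc2, with 155 CPM against 70.9 CPM. The third was Dld, a subunit gene of pyruvate dehydrogenase and related complexes, with 346 CPM against 148 CPM. In ML-60218 none of the 10 passed the rule, with 69.7 CPM for Mpc1 and 113 CPM for Mpc2. In shMaf1 Pdk4, the fasting-induced kinase, was higher with 109.9 CPM against 52.9 CPM (4.57% of all tested genes were higher).

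Of the other pentose phosphate genes, Prps1, which uses ribose 5-phosphate for nucleotide synthesis, was higher in shBrf1 (3.11% of all tested genes were higher). It had 108 CPM against 53.5 CPM in control, at the edge of the rule, and 57.8 CPM in ML-60218. The insulin-responsive glucose transporter gene Slc2a4 (GLUT4) stood at 12.8 CPM in shBrf1, 6.14 CPM in ML-60218, 2.80 CPM in control and 0.679 CPM in shMaf1 at day 2, the same order as the adipocyte markers. Of the gluconeogenic genes, Pcx, pyruvate carboxylase, was the 1 of 4 measured past the rule in shMaf1, with 226 CPM against 512 CPM (3.48% of all tested genes were lower). Of 9 genes of the polyol and hexosamine branches, Gfpt2, an isoform of the first hexosamine enzyme, was lower in shMaf1 at day 2. It had 11.3 CPM against 37.8 CPM (3.48% of all tested genes were lower). Neither of the 2 measured genes among other glycolytic isozymes passed the rule in a comparison against control.

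The remaining members fell short of the size rule or were rare. Some still differed between libraries, such as Pfkfb2 (13.9 to 31.5 CPM) and Pygb (93.6 to 187 CPM). Hk1, Pfkm, Pfkfb1, Pfkfb2, Pfkfb4, Ldhb, Pdk2, Pdk3, Pgls, Rpe and Pygb, the brain glycogen phosphorylase, passed the rule in none of the 10 comparisons, at levels from 3.26 CPM for Pfkfb1 in control at day 0 to 187 CPM for Pygb in shBrf1 at day 0. Several genes of the chain, Gapdh among them, have many processed copies in the mouse genome, and the row of Eno1 merges 2 loci. Reads from near-identical copies could therefore have been split or lost. In each library 44.35% to 49.98% of reads were listed as ambiguous, and the part of such copies in that share was not tested.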

How the data were processed

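Poly(A) messenger RNA of 8 libraries was sequenced. Per the submitters' processing notes reads were aligned with STAR 2.4 to mm10. The counting tool is not given in the sources used here. The authors deposited 6 comparison tables with estimated counts per gene, rounded to whole numbers, and a log2 fold change of 1 perturbed against 1 control library. The control columns of a day were identical in all tables (0 genes differed), and 0 columns of sample values were left unused. The authors' deposited quality tables give the percent of reads on rRNA and of ambiguous reads, the count of ERCC spike-in reads, a score for 3′ bias, and, as other numbers, genes detected, per the file headers.

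TMM factors for all 8 libraries came from edgeR 4.0.16 (R 4.3.3). Log2 ratios used a pseudocount of 0.5 CPM. The call rule was at least 2-fold with 1 CPM in the higher library. Folds carry exact conditional binomial (Clopper-Pearson) 95% intervals, and shares exact binomial ones. With no molecular identifiers, both cover counting error only. Each condition on each day was 1 library, so a difference on a single day has no test, and a model of condition plus day over the 8 libraries was not fitted. The percent of all tested genes past the rule is given beside each first count. Transcript lengths (GENCODE M21) were found for all 39 members. The call rule, the fold intervals and the removal of the length trend were tried on simulated counts that held counting error only. The steps other than TMM used scipy 1.17.1, statsmodels 0.14.6, pandas 2.3.3, numpy 2.4.6 and matplotlib 3.10.9 in Python 3.11.15.

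The members and the lists were chosen with earlier results of these data known. All members are named. Levels in every library are given for members past the rule in at least 1 comparison and for some fixed central genes, and of related lists up to 4 members past the rule per comparison could be named. The comparison of ML-60218 with shBrf1 and the groupings "glycolytic chain" and "pentose phosphate genes" were added after values were seen. As alternatives, libraries were scaled by size factors of DESeq2 1.42.0, by totals or by spike-in reads. The pseudocount was set to 0.1 or 1 CPM, the floor to 5 CPM or dropped, and the rule to 1.5-fold. Other alternatives took out a lowess trend (fraction 0.3) of the ratio on transcript length, or used the authors' log2 fold change.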

Additional observations from a re-analysis of the deposited data

Results flagged for a closer look

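For 3 genes a pair of perturbations stood on opposite sides of the same reference, each past the size rule. With 1 library per group these differences were not tested. At day 2 Eno2 had a log2 ratio to control of -1.23 in shBrf1 and of 1.20 in ML-60218. At day 2 Ldha had a log2 ratio to control of -1.17 in shMaf1 and of 1.44 in ML-60218. Between day 0 and day 2 Slc16a3 had a log2 ratio of -1.22 in shBrf1 and of 1.60 in ML-60218, at levels that did not exceed 4.65 CPM.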

How the results depend on the processing

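No paired analysis was possible because every group held 1 library, and leaving out a library would leave its group empty. Counts of genes past the rule moved by more than 1.5 times as follows, with the count as reported first and the alternative after it. With spike-in scaling, genes higher and lower at day 2 against control went from 0 and 2 to 1 and 1 in shMaf1, from 2 and 1 to 0 and 3 in shBrf1, and from 14 and 0 to 3 and 1 in ML-60218. For day 2 against day 0 they went from 10 and 2 to 0 and 8 in control, from 2 and 0 to 0 and 1 in shMaf1, from 13 and 4 to 1 and 13 in shBrf1, and from 21 and 1 to 5 and 7 in ML-60218. Over all tested genes the shares lower at day 2 against day 0 were then 28.6% in control, 11.0% in shMaf1, 58.2% in shBrf1 and 62.0% in ML-60218, and the shares higher were 3.76%, 2.80%, 3.09% and 2.60%. Against control at day 2, 2.36% of all genes were lower in shMaf1, 25.4% in shBrf1 and 12.6% in ML-60218. For responses against that of control they went from 0 and 1 to 0 lower in shMaf1, from 1 and 1 to 0 and 5 in shBrf1, and from 14 and 0 to 3 and 2 in ML-60218. In that scaling 6 called genes had the opposite sign for day 2 against day 0. In shBrf1 these were Pfkp at -0.029, Aldoa at -0.022, Pgam1 at -0.059, Pkm at -0.20 and Tkt at -0.13, and in ML-60218 Tkt at -0.11. The cause was not tested beyond the shift of all genes given above.

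With library totals shBrf1 had 1 higher gene at day 2 in place of 2 (2.35% of all tested genes in place of 3.11%). For day 2 against day 0 control had 4 higher in place of 10, shMaf1 0 higher and 1 lower in place of 2 and 0, shBrf1 6 higher in place of 13, and ML-60218 2 lower in place of 1. With DESeq2 size factors shMaf1 had 1 lower gene at day 2 against day 0 in place of 0, and shBrf1 2 higher responses in place of 1. With a pseudocount of 1, shBrf1 had 1 higher gene at day 2 (2.59% of all tested genes) and control 1 lower gene over time. With a pseudocount of 0.1, shMaf1 had 1 lower gene over time and shBrf1 2 lower responses. With the length trend removed, shMaf1 and shBrf1 each had 1 higher gene at day 2 against control, shMaf1 had 1 higher and 1 lower gene over time, and ML-60218 had 2 lower over time. The 1 higher response in shBrf1 was then of another gene than Taldo1. Of the 14 higher responses in ML-60218, 13 remained. By the authors' log2 fold change shMaf1 had 1 lower gene at day 0 (1.74% of all tested genes).

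With a 1.5-fold rule, and the share of all tested genes in parentheses, shMaf1 had 3 higher (6.32%) and 1 lower (4.78%) at day 0. At day 2 shMaf1 had 2 higher (10.8%) and 8 lower (9.36%), and shBrf1 had 6 higher (11.6%). Over time control had 19 higher (19.5%), and shMaf1 14 higher (12.0%) and 2 lower (13.2%). In shBrf1 20 were higher (26.4%) and 7 lower (27.7%), and in ML-60218 3 were lower (25.0%). Responses were then 5 lower in shMaf1 (7.66%), and 5 higher (9.64%) and 3 lower (15.1%) in shBrf1.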
